A study of Mus musculus with 96 samples.

Results

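Sox7, Sox17 and Sox18 form the F group of the Sox transcription factors. The 3 genes were taken by name from a table of 19836 genes, and each was described across 96 single cells of the C57BL/6 mouse embryo. The cells were labelled as precursors of haematopoietic stem cells (pre-HSCs) or as haematopoietic stem cells (HSCs). The pre-HSCs came from the region of the aorta, gonads and mesonephros (AGM, 48 cells) and from the yolk sac (16 cells), all at E11.5 and all sorted as Ter119-CD11b-CD144+c-kit+EPCR+. The 16 HSCs of E12.5 liver were Ter119-Sca-1+c-kit+EPCR+, and the 16 HSCs of E14.5 liver were Ter119-Sca-1+c-kit+CD48-CD150+. CD144 is the product of Cdh5, an adhesion molecule of endothelial junctions, and it was a sort marker at E11.5 alone. Tissue, age and sort changed together between E11.5 and the liver stages, so their parts in a difference cannot be told apart. Between the liver stages age and sort changed together, and their parts cannot be told apart there either. The AGM and the yolk sac shared age and sort. No animal or litter is named in the labels, so each group counts as 1 sample and no test was made between groups.

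SoxF proteins bind DNA through an HMG box and carry a C-terminal activation domain, and in the embryo they are best known as regulators of endothelial cells. Sox17 is linked to arterial fate and to haemogenic endothelium, the vessel lining from which the first HSCs bud, and fetal HSCs depend on it. Sox18 starts lymphatic fate in veins by way of Prox1 and acts in vessel growth. Sox7 takes part in early vessel formation and is switched off as blood progenitors leave the endothelial state. Ptprc encodes CD45, a surface phosphatase of blood cells that pre-HSCs acquire as they mature.

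In GRCm38, Sox7 lies on the forward strand at chr14:63943673-63950732 (ENSMUSG00000063060.5 in the table), with 3299 bases of exon in GENCODE M21. Sox17 lies on the reverse strand at chr1:4490931-4497354 (ENSMUSG00000025902.13), with 4772 exon bases. Sox18 is the most compact, with 1620 exon bases on the reverse strand at chr2:181669836-181671640 (ENSMUSG00000046470.5). The start of Sox17 overlaps the predicted gene Gm37587 on the opposite strand (chr1:4496551-4499558), and no source used here says whether the counting read strand. Gm37587 had reads in 1 cell of the 96, the E12.5 liver cell numbered 5 (129.9 CPM, beside 373 of Sox17), so Sox17 and Gm37587 reads may be mixed in that cell.

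Cells held between 250235 and 1926882 reads, and pooled depth ran from 19053123 reads in E12.5 liver to 60280645 in the AGM. Median numbers of genes with a read were 5522.5 (AGM), 5349.5 (yolk sac), 4036 (liver, E12.5) and 4839 (liver, E14.5). Cells had a median of 9 of 12 endothelial markers in the AGM, 6 in yolk sac and 5 at each liver stage, where Kdr (E12.5) and Cldn5 (E14.5) had no read. Haematopoietic markers reached a median of 9 of 12 (AGM), 8.5 (yolk sac), 7.5 (E12.5) and 8 (E14.5). Of the 96 wells, 8 stood apart with 9848 to 11094 genes, against at most 8948 in the other 88. These were the AGM cells numbered 1, 5, 8 and 36, the yolk sac cells 1, 2 and 3, and the E12.5 liver cell 1. A further 5 liver cells were rich in erythroid RNA although sorted as Ter119-, with 10066.5 to 227847 CPM (reads scaled to a common total per cell or group) summed over 10 erythroid genes, against at most 2174.8 in the other 27. They were cell 8 of E12.5 liver and cells 3, 8, 13 and 16 of E14.5 liver. The E12.5 cell had more macrophage than erythroid RNA (21592 CPM over 5 of 8 macrophage markers) and only 1011 genes, so the set is called erythroid-rich by its rule alone. The SoxF levels, SoxF ratios and AGM co-detection shares below that include either set are also given without it where it moves them. Levels, ratios and counts of the gene lists further below are given over all cells only. Whether a wide well held more than 1 cell was not tested, and this bears on every count of genes read in the same cell.

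SoxF reads were patchy: most cells had none of a given gene, and a few cells held most reads of it. At least 1 SoxF gene had a read in 27 of 48 AGM cells (56.25%, 95% exact binomial interval 41.2 to 70.5%). The share was 4 of 16 in yolk sac (25%, 7.27 to 52.4%), 7 of 16 in E12.5 liver (43.75%, 19.8 to 70.1%) and 8 of 16 in E14.5 liver (50%, 24.7 to 75.3%). These intervals overlap between all groups, and they cover counting error only. Combinations of the genes were seen mainly at E11.5, in part in the wide wells. Reads of 2 or 3 SoxF genes were found in 12 of the 27 positive AGM cells (7 cells with 2 genes, 5 with all 3) and in 3 of the 4 positive yolk sac cells. All 3 of these yolk sac cells were wide wells, and so were AGM cells 1, 5, 8 and 36. Without the wide wells, AGM cells 11, 17, 23, 30 and 37 had 2 genes and cells 3, 21 and 25 had all 3, among 23 positive cells. In yolk sac the 1 positive cell left had a single gene. In E12.5 liver 6 of 7 positive cells had a single SoxF gene, and in E14.5 liver all 8 did.

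**Figure D1:**
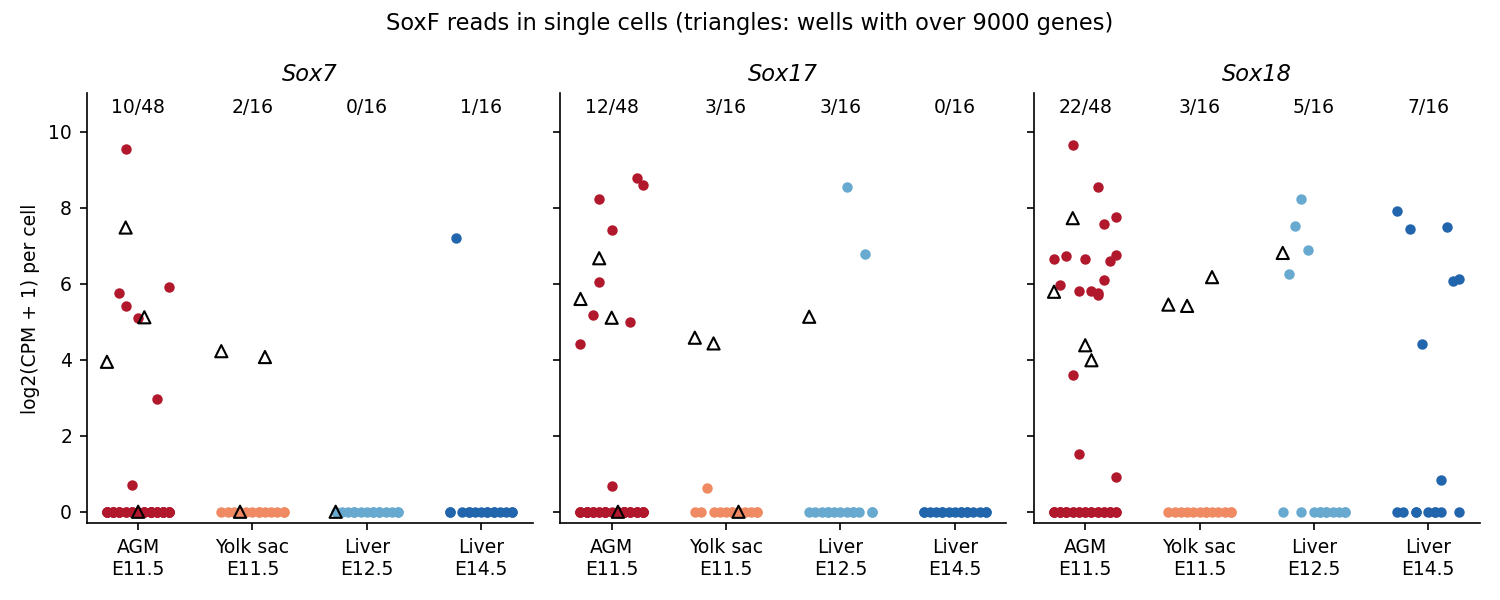
Level of Sox7, Sox17 and Sox18 in each of the 96 cells, as log2(CPM + 1) on the vertical axis, by group; triangles are the 8 wells with over 9000 genes, and the counts at the top give cells with a read over cells measured. All yolk sac points above 1 are triangles, Sox7 has no read in E12.5 liver, and Sox17 has none in E14.5 liver.

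Sox7, known as the member switched off early on the path to blood, had its highest share of cells with a read in the AGM. Its share intervals overlap between all groups. It had reads in 10 of 48 AGM cells (20.8%), and in those cells its lowest level was 0.621 CPM, its median 37.7 and its highest 743. In yolk sac it had reads in cell 1 (17.7 CPM) and cell 2 (15.8 CPM), both among the wells with over 9000 genes. None of the 16 E12.5 liver cells had a Sox7 read, so at this number of cells a share of up to 20.6% was not detectable. E14.5 liver had Sox7 in 1 cell, number 9, at 147.1 CPM (243 reads). AGM cell 3 alone held 62.9% of the AGM reads, and the mean over AGM cells was 24.2 ± 110 CPM (SD, n = 48 cells). The groups overlap in that cells without a read were the majority everywhere.

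Pooled over cells, Sox7 stood at 22.5 CPM in the AGM (95% Poisson interval 21.3 to 23.7), 2.42 in yolk sac (1.82 to 3.16), 0 in E12.5 liver (upper limit 0.194) and 11.8 in E14.5 liver (10.4 to 13.4). Without cell 3 the AGM level was 8.51 CPM, below the E14.5 liver level, which itself comes from 1 cell and is 0 without it. Order of level between the AGM and E14.5 liver therefore turns on single cells. Yolk sac was lower than the AGM by a log2 ratio of -2.78 (on pooled CPM + 1; counting interval -3.13 to -2.42), or -1.47 without AGM cell 3 and -3.57 without yolk sac cell 1. Over 15239 genes with at least 30 reads, 21% were at least 2-fold lower in yolk sac than in the AGM and 8.61% at least 2-fold higher, with a median log2 ratio of -0.20. Against E12.5 liver, with no read, the AGM level was at least 142.9-fold higher (floor of 3 reads over the group), or at least 54.0-fold without AGM cell 3. There 26% of genes were 2-fold or more lower in E12.5 liver than in the AGM and 15.6% higher. Fold bounds of this kind cover counting of reads only, not the sampling of cells. With 0 of 16 E12.5 cells, a share of up to 20.6% was possible, beside 20.8% of AGM cells with a read. E12.5 liver was at least 15.4-fold below yolk sac for Sox7, but at least 6.23-fold without yolk sac cell 1, and without the wide wells neither group had a read. E14.5 liver was at least 75.0-fold above E12.5 liver by its cell 9 alone, without which neither had a read. The ratio of E14.5 liver to the AGM was -0.88, or 0.43 without AGM cell 3 and -0.56 without the erythroid-rich cells.

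Sox17, the arterial and haemogenic member, was detected in both E11.5 tissues and in E12.5 liver, and had no read in E14.5 liver. In the AGM it had reads in 12 of 48 cells (25%), from 0.603 CPM through a median of 56.0 to 436 CPM. Cells 40, 48 and 3 were the highest, at 436, 383 and 301 CPM. In yolk sac it was found in cell 1 (22.9 CPM), cell 3 (20.5 CPM) and cell 6 (1 read, 0.531 CPM). In E12.5 liver it was found in cell 5 (373 CPM), cell 7 (108 CPM) and cell 1 (34 CPM). E12.5 cells 5 and 7 lie within the range of the AGM cells, while the yolk sac values sit below the AGM median.

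The pooled Sox17 level was 33.1 CPM in the AGM (31.6 to 34.5) and 32.2 in E12.5 liver (29.7 to 34.9), 3.50 in yolk sac (2.76 to 4.36) and 0 in E14.5 liver (upper limit 0.179). The AGM and E12.5 liver levels are the neighbours that do not differ beyond counting error, with a log2 ratio of -0.04. That likeness rests on liver cell 5, the cell that also has the Gm37587 reads: without it E12.5 liver stood at 9.30 CPM and the log2 ratio was -1.73. Yolk sac was lower than the AGM by -2.92 on the log2 scale, or -3.67 without its cell 1. E12.5 liver was higher than yolk sac by 2.89 (1.20 without liver cell 5, 3.64 without yolk sac cell 1), in a comparison where 19.7% of genes were 2-fold or more higher in liver and 19.5% lower. Between the liver stages Sox17 was at least 221.1-fold lower at E14.5, or at least 63.8-fold without E12.5 cell 5 (18.2% of genes were 2-fold or more lower and 18.7% higher). Against the AGM it was at least 226.9-fold lower at E14.5, where 25.3% of genes were 2-fold or more lower and 15.3% higher. Both bounds cover counting of reads only, not the sampling of cells. The AGM share interval (13.6 to 39.6%) overlaps that of E14.5 liver (0 to 20.6%). The 3 E12.5 cells in 16 and the 0 in 16 at E14.5 have share intervals that overlap (4.05 to 45.6% against 0 to 20.6%), so a difference in the number of Sox17 cells was not detectable with 16 cells a stage.

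Sox18, the member known from lymphatic fate, was the only member with reads in all 4 groups. Reads were found in 22 of 48 AGM cells (45.8%) and in 3 of 16 from yolk sac (18.75%). In the liver, 5 of 16 cells had it at E12.5 (31.25%) and 7 of 16 at E14.5 (43.75%). In AGM cells with a read it ran from 0.889 CPM through a median of 64.5 to 796 CPM in cell 3. In yolk sac cells 1, 2 and 3, all of them wide wells, it stood at 42.6, 71.0 and 41.7 CPM. In E12.5 liver it stood at 300 CPM in cell 3, 182.8 in cell 6, 116 in cell 11, 111 in cell 1 and 75.8 in cell 9. In E14.5 liver it stood at 241 CPM in cell 1, 178.1 in cell 10, 171.2 in cell 6, 69.0 in cell 4, 65.7 in cell 7, 20.3 in cell 11 and 0.794 (1 read) in cell 13. All 5 positive E12.5 cells lay above the AGM median for positive cells, and the E14.5 cells spread to both sides of it.

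Pooled Sox18 was 57.5 CPM in E12.5 liver (54.1 to 61.0), 56.8 in the AGM (54.9 to 58.7), 49.5 in E14.5 liver (46.5 to 52.6) and 10.7 in yolk sac (9.40 to 12.2). The AGM and E12.5 liver intervals overlap, and all differences between the 3 higher groups are small beside the spread of cells, for which the means were 56.9 ± 132 CPM in the AGM (SD, n = 48), 49.1 ± 88.1 in E12.5 liver (SD, n = 16) and 46.6 ± 79.0 in E14.5 liver (SD, n = 16). The log2 ratio to the AGM was 0.02 at E12.5 and -0.20 at E14.5, inside the 2-fold limit. Without liver cell 3 the E12.5 ratio was -0.85. Without the 4 erythroid-rich cells E14.5 liver stood at 62.7 CPM, and the ratio to the AGM turned to 0.14. Yolk sac was lower than the AGM by -2.30.

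Corrected for exon length, Sox18 was the highest member in all 4 groups, in yolk sac by way of the wide wells alone. In the AGM it had 35.1 CPM per exon kilobase (33.9 to 36.3), against 6.93 for Sox17 (6.63 to 7.24) and 6.82 for Sox7 (6.46 to 7.19), which did not differ beyond counting error. Without AGM cell 3 they did, at 5.84 for Sox17 (5.56 to 6.13) and 2.58 for Sox7 (2.36 to 2.81), with Sox18 at 26.2. In yolk sac all 3 were lower, at 6.61 for Sox18 and 0.733 and 0.734 for Sox17 and Sox7. The other 13 yolk sac cells had 0 reads of Sox18 and of Sox7, and 1 of Sox17. In E12.5 liver Sox18 had 35.5 and Sox17 6.75, and in E14.5 liver Sox18 had 30.5 and Sox7 3.58.

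**Figure D2:**
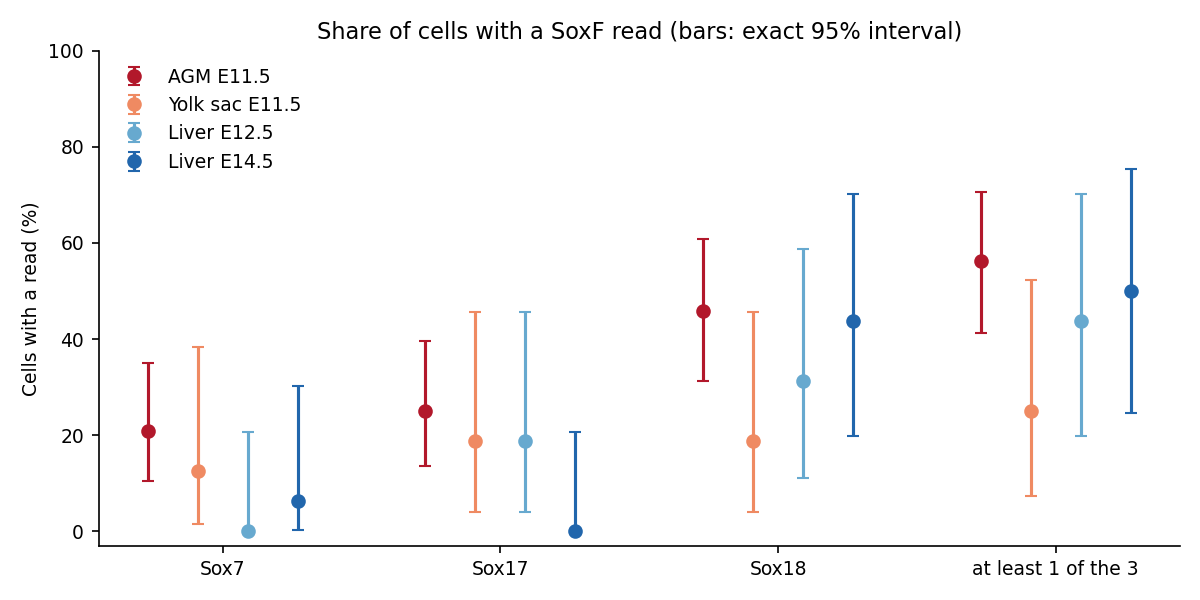
Share of cells with at least 1 read of Sox7, Sox17, Sox18 or any of the 3, in percent of the cells of each group; bars are exact 95% binomial intervals. Sox18 is the member with the highest share in the AGM (45.8%) and in both liver stages (31.25% and 43.75%), and intervals between groups overlap for each gene.

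Wells with many genes carried much of the SoxF signal of the yolk sac. All 8 wells with over 9000 genes had a SoxF read, against 38 of the other 88 cells. In yolk sac, 3 such wells held every SoxF read but 1: the remaining 13 cells had no Sox7 or Sox18 read (up to 0.171 CPM) and a single Sox17 read. The 4 yolk sac cells with SoxF had a median of 10287.5 genes, 12 of 12 endothelial markers and 12 of 12 haematopoietic markers, against 4939 genes, 6 and 7 in the 12 cells without. The gap between yolk sac and the AGM was larger without these wells, with log2 ratios of -4.43 for Sox7, -4.99 for Sox17 and -5.85 for Sox18. With so few yolk sac reads left, the size of these ratios is set by the 1 CPM added and by the AGM level. The other groups moved little: without the wide wells the AGM stood at 20.5, 32.7 and 56.9 CPM for Sox7, Sox17 and Sox18, and E12.5 liver at 32.1 for Sox17 and 54.5 for Sox18. The part of gene number in SoxF detection was not tested.

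**Figure D3:**
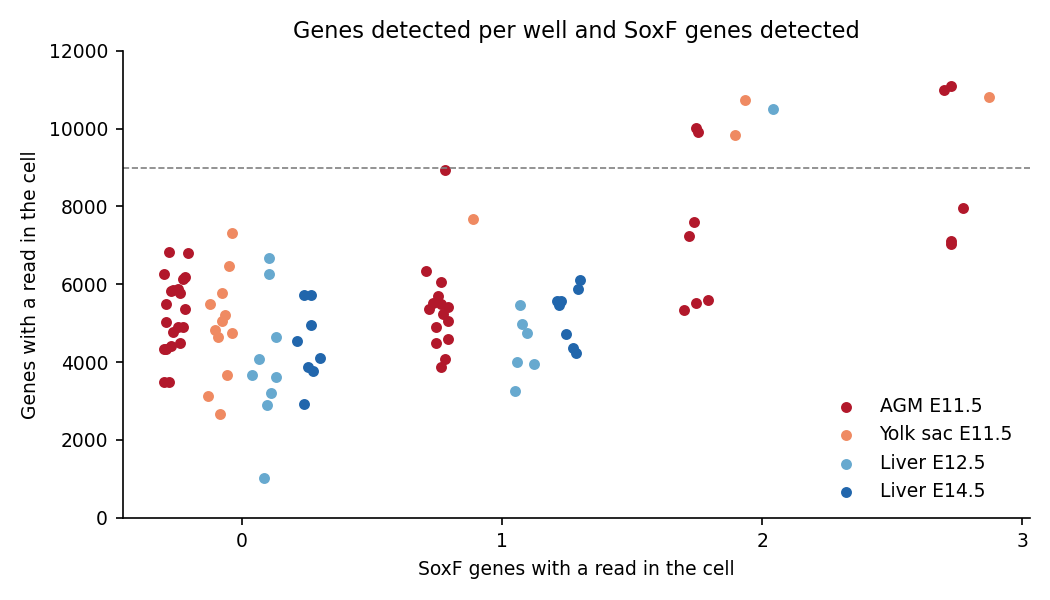
Number of genes with a read in each cell (vertical axis) by the number of SoxF genes with a read in that cell (0 to 3), coloured by group; the dashed line is 9000 genes. Every well above the line has 2 or 3 SoxF genes, and the liver cells with a single SoxF gene lie among those with none.

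In the AGM, reads of different SoxF genes often lay in the same cells. Sox17 had a read in 6 of the 10 Sox7 cells (60%, 26.2 to 87.8%) and in 6 of the 38 cells without Sox7 (15.8%, 6.02 to 31.3%), and these 6 shared cells were 50% of the Sox17 cells. Sox18 was in 8 of the 10 Sox7 cells (80%, 44.4 to 97.48%) against 14 of 38 without (36.8%, 21.8 to 54.0%), and the shared cells were 36.4% of the Sox18 cells. Sox18 was also in 8 of the 12 Sox17 cells (66.7%, 34.9 to 90.1%) against 14 of 36 without (38.9%, 23.1 to 56.5%). All 3 genes had reads in AGM cells 1, 3, 21, 25 and 36. Each share was higher beside the other SoxF gene, and each pair of intervals overlaps. Without the 4 wide wells the shares were 57.1% against 13.5%, 71.4% against 35.1% and 55.6% against 37.1%. Spearman's correlation of log2(CPM + 1) over the 48 AGM cells was 0.43 for Sox7 and Sox17, 0.36 for Sox7 and Sox18 and 0.26 for Sox17 and Sox18. For all genes measured in at least 20% of AGM cells (9299 genes), the median correlation was 0.14 with Sox7, 0.07 with Sox17 and 0.09 with Sox18. The values within a cell share its library and depth. Without the 4 wide AGM wells the pair correlations were 0.40, 0.30 and 0.19. With gene number per cell regressed out over all 48 cells they were 0.37, 0.23 and 0.20. AGM cells with Sox7 had a median of 7417 genes against 5388.5 without. Those with Sox17 had 7066.5 against 5483.5, and those with Sox18 5884 against 4967.5.

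The endothelial gene Cdh5 was read in nearly all SoxF cells at E11.5, where CD144 was sorted for, and in few liver cells of any kind. In the AGM, Cdh5 had a read in 10 of 10 Sox7 cells, 11 of 12 Sox17 cells and 22 of 22 Sox18 cells, against 45 of all 48 cells, so there were 3 AGM cells without Cdh5 to compare with. The median Cdh5 level was 81.6 CPM in cells with Sox7 and 23.3 in cells without, 28.2 and 35.3 for Sox17, and 45.8 and 33.6 for Sox18. In yolk sac all 4 SoxF cells had Cdh5, as did 3 of the 12 others, and all 4 had Ptprc, as did 5 of the 12. There the cells with Cdh5 had more genes (median 7686 against 4814), and 29.4% of genes were 2-fold or more higher in them and 11.1% lower. With and without Ptprc those shares were 29.2% and 11.4%. In E12.5 liver 2 of the 5 Sox18 cells (numbers 1 and 3) and 1 of the 3 Sox17 cells had Cdh5, and in E14.5 liver 1 of 7 Sox18 cells had it. Pooled Cdh5 was 48.5 CPM in the AGM, 3.52 in E12.5 liver and 0.194 (4 reads) in E14.5 liver, a log2 ratio of -3.45 at E12.5. E12.5 cell 2, which had no SoxF read, held 95.5% of the Cdh5 reads there, and without it 3 reads remained (0.175 CPM). Sox18 stayed within 2-fold of its AGM level at both liver stages. Cdh5 was rare in the liver with or without Sox18: it was read in 1 of the 11 E12.5 cells and 0 of the 9 E14.5 cells that lacked Sox18.

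Over all 48 AGM cells, Ptprc was read in nearly equal shares of cells with and without each SoxF gene. It was present in 6 of 10 Sox7 cells (60%) and 22 of 38 others (57.9%), in 7 of 12 Sox17 cells (58.3%) and 21 of 36 others (58.3%), and in 13 of 22 Sox18 cells (59.1%) and 15 of 26 others (57.7%). Without the 4 wide wells the shares were 42.9% against 56.8% for Sox7, 44.4% against 57.1% for Sox17 and 50% against 57.7% for Sox18, each lower beside SoxF and each from 3 to 9 cells with both genes. The correlation with Ptprc was 0.02 for Sox7, -0.02 for Sox17 and -0.11 for Sox18. Levels pooled by Ptprc were less even for Sox7, with 11.2 CPM in the 28 cells with Ptprc and 36.9 in the 20 without. In that split 18.1% of genes were 2-fold or more higher in the cells with Ptprc and 11.7% lower. The Sox7 value without Ptprc was 4.89 CPM when cell 3 was left out, which turns the direction. Sox17 stood at 34.8 CPM with Ptprc and 30.9 without, and Sox18 at 44.8 and 72.1 (39.4 without cell 3). AGM cell 3 had no Ptprc read, 11 of 12 endothelial markers (15601 CPM in sum, the most of any AGM cell) and 2 of 12 haematopoietic markers, the fewest of any AGM cell.

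**Figure D4:**
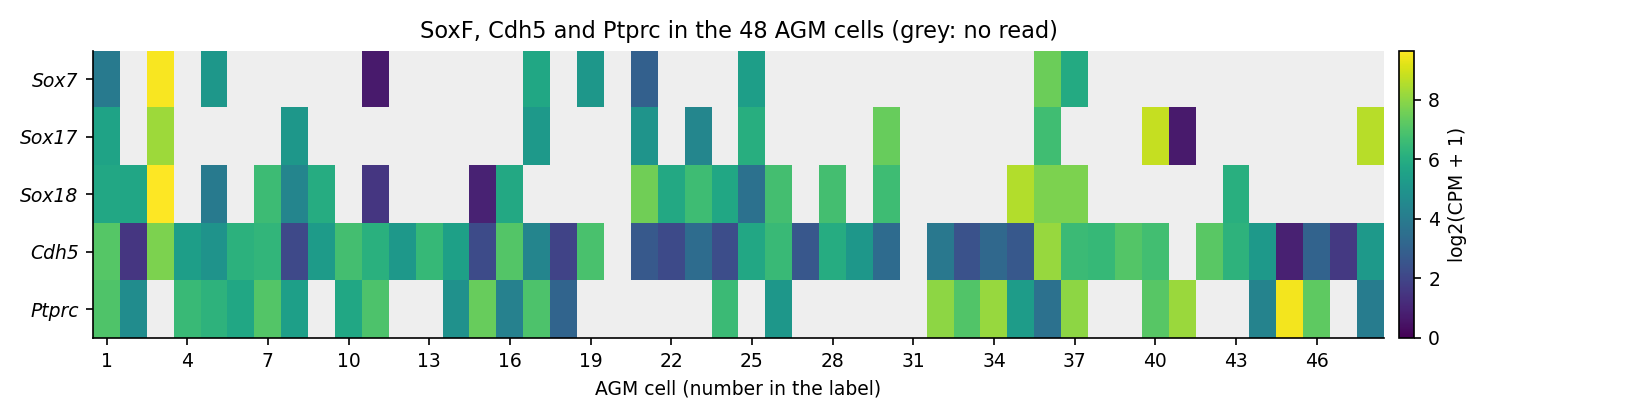
Levels of Sox7, Sox17, Sox18, Cdh5 and Ptprc as log2(CPM + 1) in each of the 48 AGM cells, which are ordered by the number in their label; grey marks no read. Cells 1, 3, 21, 25 and 36 have all 3 SoxF genes, Cdh5 fills 45 of 48 columns, and Ptprc appears in 28 without following the SoxF rows.

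In the liver most cells with SoxF had Ptprc and few endothelial markers. All 5 Sox18 cells of E12.5 liver had Ptprc, against 7 of the 11 cells without Sox18. At E14.5 Ptprc was in 4 of 7 Sox18 cells and 6 of 9 others. The only liver cell with 2 SoxF genes was E12.5 cell 1 (Sox17 34 CPM, Sox18 111 CPM), a wide well. Liver cells with SoxF did not stand out for endothelial markers, with a median of 5 of 12 in those with and without at E12.5, and 5.5 against 4.5 at E14.5. The median for haematopoietic markers was 8 against 7 at E12.5 and 9 against 7.5 at E14.5. Of the 5 erythroid-rich liver cells, 1 had a SoxF read (a single Sox18 read in E14.5 cell 13), against 14 of the other 27 liver cells.

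Genes whose pattern over the 48 AGM cells was most like that of a member were ranked by Spearman's correlation. Sox7 was closest to Pbxip1 (0.79), Csf1, a macrophage growth factor (0.76), Myzap, a junction-associated protein (0.70), Zfp276 (0.67) and Prmt2, an arginine methyltransferase (0.67). Pbxip1 and Csf1 each had reads in 10 AGM cells, 8 of them Sox7 cells. Sox17 was closest to Tmem140 (0.65), the heat-shock gene Hspa1a (0.65), Mtus1 (0.62), Bcl6b, a transcriptional repressor (0.58), and Leprotl1 (0.58). Sox18 was closest to Erg, an ETS factor of endothelial and stem cells (0.66), then Ehmt1, a histone methyltransferase (0.60), Cbx6 (0.58), Pygo2 (0.58) and Dclre1a (0.58). Erg had a read in 21 of the 22 Sox18 cells and in 30 AGM cells in all. When gene number per cell was regressed out, 4 of the 5 genes remained in the first 5 for Sox7, 5 for Sox17 and 4 for Sox18. With Pearson's r in place of Spearman's coefficient, 3, 1 and 2 remained, so all the rankings depend on the measure, that for Sox17 the most.

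Partners and reported targets of SoxF are a list of Notch pathway, arterial and other vascular genes. Inside the AGM a larger share of them than of all genes reached a correlation of 0.3 with each member. The correlation was at least 0.3 for 15 of 22 list genes with Sox7 (median 0.39), against 17.3% of all genes. It was at least 0.3 for 9 of 22 with Sox17 (median 0.28, against 7.82% of all genes) and for 7 of 22 with Sox18 (median 0.23, against 9.17%). Transcription factors of blood formation reached 0.3 in 2 of 19 with Sox7, 1 with Sox17 and 1 with Sox18. Of 11 haematopoietic markers, 0 reached it with any member. Endothelial markers reached it in 8, 4 and 6 of 11, and that list shares genes with the partner list. All these list values include the wide wells, and gene number per cell was not regressed out. Gene number itself had a correlation of 0.51 with Sox7, 0.24 with Sox17 and 0.35 with Sox18.

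Against the AGM, many partner genes were lower in the other groups. The values include the wide wells and AGM cell 3, and were not recomputed without them. Of the 32 list genes with 30 reads, 6 reached that number only with the AGM reads, so counts are given for the other 26, beside 12983 genes with 30 reads outside the AGM. In yolk sac 11 of 26 were at least 2-fold lower and 0 higher (median log2 ratio -0.84), against 16.2% lower and 10.1% higher of all such genes (median -0.07). The Notch ligand Dll4 stood at 4.44 CPM in yolk sac and 50.1 in the AGM (log2 ratio -3.23), the arterial connexin gene Gja4 at 11.2 and 86.2 (-2.84), the receptor gene Acvrl1 at 2.11 and 21.3 (-2.84), and the Notch target Hey1 at 6.68 and 35 (-2.23). In E12.5 liver 17 of 26 were at least 2-fold lower than in the AGM and 1 higher (median -1.98), against 21.5% lower and 18.3% higher of all such genes. Gja4, the co-receptor gene Nrp1, the VEGF receptor gene Kdr and Hey1 had no read there, against 86.2, 47, 39 and 35 CPM in the AGM, and Cldn5 of tight junctions had 2 reads against 178.4 CPM. In E14.5 liver 18 of 26 were lower and 1 higher (median -2.16), against 20.3% and 17.9% of all such genes, and Hes1 and Dll4 had no read, against 164.1 and 50.1 CPM in the AGM. Sox18 in both liver stages and Sox17 at E12.5 (there by way of cell 5) stood within 2-fold of the AGM in groups where 17 and 18 of these 26 genes were lower.

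Between the liver stages, which differ in age and in sort, 6 of the 32 list genes were at least 2-fold lower at E14.5 and 3 higher (median -0.04). Of all genes, 18.2% were lower and 18.7% higher. Of the 32, 17 had no read in at least 1 of the liver stages, and 6 reached 30 reads only with the AGM reads. The counts therefore cannot settle whether the list as a whole changed. Notch1, a receptor, stood at 1.89 CPM at E14.5 against 25.1 at E12.5 (-3.17), and Rbpj, the DNA-binding partner of Notch, at 6.36 against 26.7 (-1.91). Hes1 went from 11 CPM, and the ligand gene Efnb2 from 3.99, to no read. The venous receptor gene Ephb4 was higher at E14.5, at 8.60 against 1.10 CPM (2.19). Sox18 had a log2 ratio of -0.21 between the stages, or 0.10 without the erythroid-rich cells.

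Of the blood transcription factors, 6 of 20 were at least 2-fold higher in E12.5 liver than in the AGM and 0 lower (median 0.69). All 20 had 30 reads outside the AGM. Of the 12983 genes with that number, 18.3% were higher and 21.5% lower (median -0.02). Ikzf1, a lymphoid and stem cell factor, stood at 74.9 CPM against 19.6 (1.88), Cbfa2t3 at 94.3 against 33.5 (1.47), Erg at 24.5 against 8.56 (1.42) and Gfi1b at 118 against 45.8 (1.35). In yolk sac 2 of 20 were higher and 2 lower than in the AGM (median 0.06), against 10.1% and 16.2% of the 12983 genes. At E14.5, 1 of 20 was at least 2-fold higher than at E12.5 and 3 lower (median -0.19), against 18.7% and 18.2% of all genes. Erg, the gene most like Sox18 within the AGM, was at 5.39 CPM at E14.5 against 24.5 at E12.5 (-2.00), where Sox18 stayed within 2-fold.

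Of the other Sox genes, 12 of 16 listed were in the table and 10 had enough reads. Since 5 of these 10 reached 30 reads only with the AGM reads, no count by direction is given. Sox11, a gene of neural and mesenchymal progenitors, is 1 of these 5. It had reads in 12 of 48 AGM cells (19.3 CPM pooled), 1 read in yolk sac and none in either liver stage. Because only its AGM reads let it pass the minimum, no difference between groups is drawn from it. The SoxC gene Sox4 was the Sox gene found in most cells, with reads in 79.2% of cells in the AGM, 75% in yolk sac and, in the liver, 75% (E12.5) and 62.5% (E14.5). Its pooled level was 108, 75.3, 63.6 and 138 CPM in that order. Per exon kilobase, Sox4 at 22.4 in the AGM was below Sox18 at 35.1, although it was read in more cells.

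**Figure D5:**
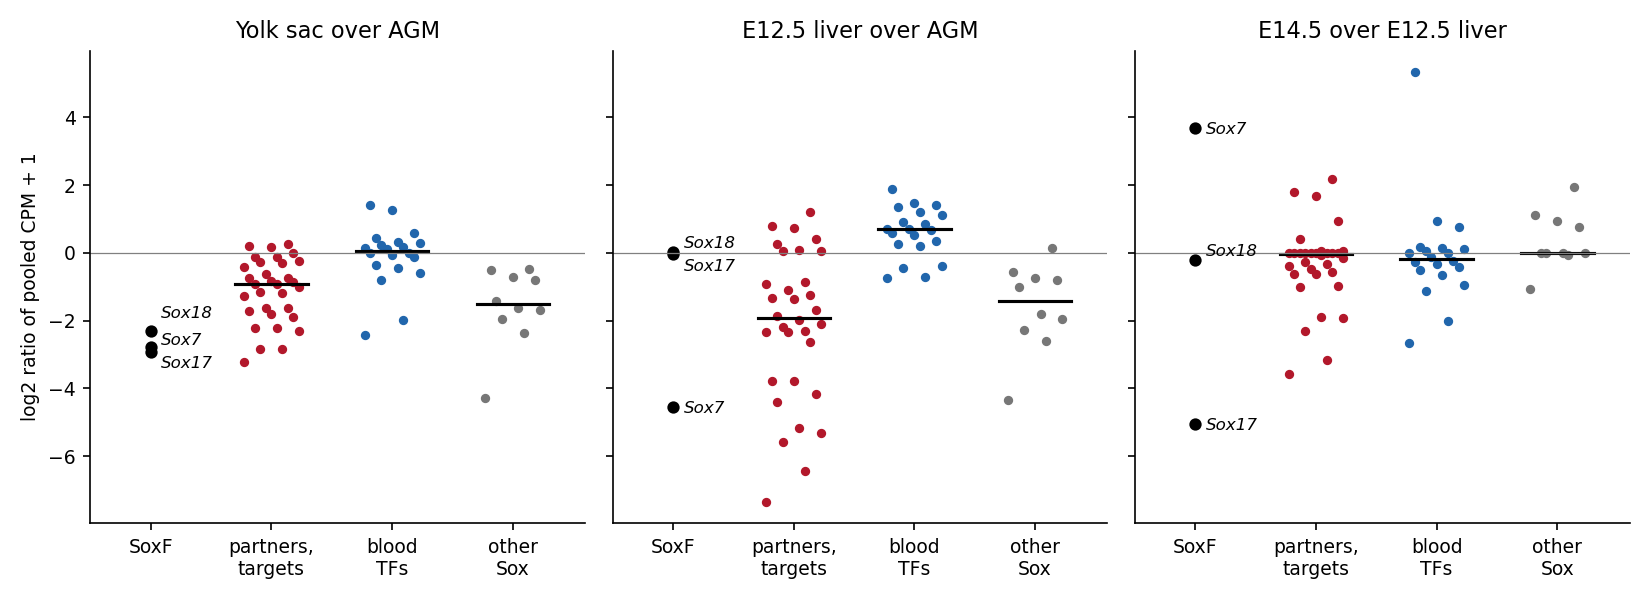
log2 ratio of pooled CPM + 1 for the SoxF genes (black), their partners and targets (red), blood transcription factors (blue) and other Sox genes (grey) in 3 comparisons; each point is a gene and bars are medians, and genes with 0 reads in a group are plotted on this scale although they are bounds. All 3 SoxF genes are low in yolk sac, and Sox7 and Sox17 part between the liver stages. In E12.5 liver over the AGM, Sox17 and Sox18 lie at 0, Sox17 by way of liver cell 5 (-1.73 without it). The partner median there is -1.92 over the 32 genes plotted, of which 6 reach 30 reads only with the AGM reads. Over the other 26 it is -1.98.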

How the data were processed

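Single cells were sorted 1 to a well, and cDNA was made with a SMART-Seq kit, per the labels' protocols. Whole-number read counts of 96 cells were deposited by the authors as 1 table. The submitters' processing notes name mm10, FastQC, Trimmomatic 0.36, STAR and HTSeq, and strand handling is not given in the sources used here. No molecular identifiers are named, so intervals and floors cover counting error of PCR reads only. All columns were matched to a label (0 unmapped). Of 19949 rows, 113 repeated a symbol and were summed. Cells needed 1000 genes, which removed 0. No doublet caller was run: the labels give 1 cell per well, which the 8 wells with over 9000 genes leave in doubt.

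Reads were pooled by group and scaled to CPM, with exact 95% Poisson intervals, and ratios are log2 of CPM + 1, which understates changes of low genes. Shares have Clopper-Pearson intervals. A pooled 0 was read as a floor of 3 reads, and 0 cells by the exact upper limit. Percentages of genes past 2-fold cover 15239 genes with at least 30 reads, or 12983 genes where the text asks for 30 reads outside the AGM. The members and gene lists were chosen with earlier results of these data known. The text names the members, Cdh5, Ptprc, the 5 genes most like each member by Spearman's correlation (no predicted, mitochondrial, ribosomal protein or sex-linked genes), and at most 6 genes per list and comparison, past 2-fold, largest first. Sox4 and Gm37587 were also named, after their values were seen. Positions and exon lengths are from GENCODE M21 (GRCm38). Alternatives were 2000 genes per cell, means of cells, thinning to 690000 reads, median-of-ratios scaling, 10 CPM added, a 10 CPM detection limit, no read minimum, partial correlation, Pearson's r and each cell left out. Leaving out the wells with over 9000 genes, and the liver cells with over 10000 CPM of erythroid genes, was chosen after seeing the data, as were a 30-read minimum outside the AGM and bounds without single cells. Python 3.11.15, pandas 2.3.3 and scipy 1.17.1 were used, and the calculation was tested on simulated counts.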

Additional observations from a re-analysis of the deposited data

How the results depend on the processing

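No paired analysis was possible because each cell is its own GEO sample, its number only names it, and no test was made. With 2000 genes per cell, median-of-ratios scaling and no read minimum, every ratio, share and background percentage that was recomputed stayed within its counting interval or within 1.5 times. The cause of the shifts below was not tested. In the order yolk sac over AGM, E12.5 liver over AGM, E14.5 liver over AGM, E12.5 liver over yolk sac and E14.5 over E12.5 liver, adding 10 CPM gave Sox7 log2 ratios of -1.39, -1.70, -0.58, -0.31 and 1.12. The same change gave Sox17 -1.67 in yolk sac over AGM, -2.11 in E14.5 liver over AGM, 1.65 in E12.5 liver over yolk sac and -2.08 between the liver stages, and Sox18 -1.69 in yolk sac over AGM and 1.70 in E12.5 liver over yolk sac. Thinning gave Sox7 -4.81 at E12.5 and -1.28 at E14.5 over AGM, Sox17 -3.53 (yolk sac over AGM), -5.32 (E14.5 over AGM), 3.43 (E12.5 over yolk sac) and -5.21 (between liver stages), and Sox18 -2.64 in yolk sac over AGM. Means of cells gave Sox7 -4.66 at E12.5 and -1.31 at E14.5 over AGM, and Sox18 -0.21 at E12.5. Without the wells of over 9000 genes, yolk sac over AGM was -4.43, -4.99 and -5.85 for Sox7, Sox17 and Sox18, and E12.5 liver over yolk sac was 0, 4.97 and 5.79. The yolk sac then had 1 Sox17 read and none of the others, so the 1 CPM added sets the size of these ratios. Yolk sac shares were then 0% for Sox7 and 0% for Sox18. Without the erythroid-rich liver cells, Sox7 was -0.56 at E14.5 over AGM and 4.0 between the liver stages, and Sox18 0.14 and 0.10. In AGM cells, Cdh5 was read in 100% of Sox17 cells after thinning, against 93.75% of those without Sox17. At a limit of 10 CPM for both genes it was in 60% of Sox18 cells against 60.7% of those without. The shares at that limit were 63.6% against 59.5% for Sox17 and 100% against 52.5% for Sox7.

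Leaving out each cell in turn, in the same order of comparisons, Sox7 ran from -3.57 to -1.47, -4.60 to -3.25, -4.55 to 0.43, -1.87 to -0.99 and 0 to 3.81. The Sox7 extremes came without AGM cell 3, yolk sac cell 1 or E14.5 cell 9, save -4.60 without AGM cell 29, -1.87 without yolk sac cell 6 and 3.81 without E14.5 cell 4. Sox17 ran from -3.67 to -2.56, -1.73 to 0.33, -5.13 to -4.73, 1.20 to 3.64 and -5.20 to -3.36. Sox18 ran from -2.84 to -1.89, -0.85 to 0.43, -0.68 to 0.22, 1.45 to 2.85 and -0.69 to 0.66. E12.5 cell 3 (Sox18) and E12.5 cell 5 and yolk sac cell 1 (Sox17) moved ratios by over 1.5 times. With 16 cells in each of 3 groups, a gene read in 0 cells may still be in up to 20.6% of them, and no value here covers differences between embryos.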
